A study of Homo sapiens with 14 samples.

Results

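The SOX family transcription factors of U251MG cells, an established human glioblastoma line, were followed through 2 expression comparisons. The family was taken as 10 named genes, SOX2, SOX4, SOX5, SOX6, SOX8, SOX9, SOX11, SOX12, SOX13 and SOX21, and all 10 had a row among the 24461 genes of both deposited tables. RNA-seq was run on 12 libraries, 3 in each of 4 groups, and ATAC-seq, which reads open chromatin, on 2 libraries. Radioresistant cells had been irradiated with X-rays in 30 fractions of 2 Gy, 60 Gy in sum, and were set against control cells of the same line. Radioresistant cells that carried the hairpin shIFI16, a short hairpin RNA against the DNA sensor gene IFI16, were set against radioresistant cells that carried the hairpin shNC. Every group was of the genotype that the labels call WT and grew in DMEM with fetal bovine serum. Both hairpin groups therefore shared the irradiation, and the labels name 1 hairpin against IFI16. Effects of IFI16 loss and other effects of that hairpin cannot be told apart. All groups came from 1 cell line, and the labels do not say whether replicates were grown apart. The p-values below therefore speak of library-to-library spread, part or all of which may be technical. The columns of the tables carry codes, and their groups were read from the letters of those codes.

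SOX proteins bind the minor groove of DNA through an HMG box, a domain they share with the sex-determining factor for which they are named, and they bend the DNA they bind. They act with partner factors, such as POU and PAX proteins, and are sorted by sequence into lettered subgroups. SOX2 (SOXB) maintains neural stem cells and is widely expressed in glioblastoma, SOX9 (SOXE) specifies glia and cartilage, SOX4, SOX11 and SOX12 (SOXC) act in neural and mesenchymal progenitors, and SOX5, SOX6 and SOX13 (SOXD) lack a known activation domain of their own.

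The 250 bases before the start of SOX2, SOX4 and SOX21 are shown because these 3 genes were among the 4 with the largest falls in radioresistant cells. They were taken from RefSeq (GRCh38.p14), read 5′ to 3′ on the strand of the gene, and lie at chr3:181711675-181711924 (SOX2, plus strand), chr6:21593501-21593750 (SOX4, plus strand) and chr13:94712546-94712795 (SOX21, minus strand). Capitals mark matches, on either strand, to the TATA box TATAAA, the CCAAT box CCAAT, the GC box GGGCGG and the SOX core ACAANG, in which N is any base. The core of the interferon-stimulated response element was also searched.
SOX2: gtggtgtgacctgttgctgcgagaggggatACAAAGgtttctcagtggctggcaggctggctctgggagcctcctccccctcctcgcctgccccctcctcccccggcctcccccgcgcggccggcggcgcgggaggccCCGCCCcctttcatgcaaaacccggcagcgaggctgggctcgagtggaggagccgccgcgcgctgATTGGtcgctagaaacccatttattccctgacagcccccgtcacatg
SOX4: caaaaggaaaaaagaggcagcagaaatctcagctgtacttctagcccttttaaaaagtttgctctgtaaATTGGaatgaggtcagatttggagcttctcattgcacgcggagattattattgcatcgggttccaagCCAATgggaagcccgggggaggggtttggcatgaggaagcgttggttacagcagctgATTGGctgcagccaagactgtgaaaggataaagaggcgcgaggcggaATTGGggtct
SOX21: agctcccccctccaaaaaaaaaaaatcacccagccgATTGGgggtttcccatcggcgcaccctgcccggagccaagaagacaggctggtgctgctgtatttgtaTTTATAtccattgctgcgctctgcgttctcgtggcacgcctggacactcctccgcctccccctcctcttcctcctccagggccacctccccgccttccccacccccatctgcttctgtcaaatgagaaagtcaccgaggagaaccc
SOX4 held 4 matches to the CCAAT box and none to the others. Of the 35116 promoters of the RefSeq table, 32.0% held at least 1 CCAAT box within these 250 bases and 0.874% held 4 or more. SOX2 held 1 match each to the CCAAT box, the GC box and the SOX core, and SOX21 held 1 TATA box and 1 CCAAT box. SOX5, whose 250 bases lie partly inside its annotated span and are not printed, held 1 GC box and 2 SOX cores. The SOX core was found in 30.9% of all promoters, the GC box in 42.6% and the TATA box in 10.7%. The interferon element core was found in 3.02% of all promoters and in none of the 6 member promoters searched, which included SOX12 and SOX13. No 2 matches overlapped in these 6 sequences. The G and C content was 48.8% for SOX4, 58.8% for SOX21, 65.6% for SOX5 and 68.8% for SOX2, against a median of 58% over all promoters. A match describes letters and is not a binding site.

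Expression was deposited in TPM, a length-corrected share of transcripts that sums to 1000000 in each library. Levels can thus be set against each other between genes, but how deeply each library was sequenced is unknown. Between 12361 and 13016 genes reached 1 TPM in a library, and Pearson's r of log2(TPM + 1) between libraries of a group, across genes that are not independent replicates, was 0.969 to 0.989. Of the astrocyte and radial glia markers, 7 of 7 averaged at least 1 TPM in control cells and 6 of 7 in each other group. They summed to 5839 to 6267 TPM in radioresistant and 13560 to 13691 TPM in control libraries. In the hairpin groups the sums were 4689 to 5488 TPM in shIFI16 and 6559 to 7165 TPM in shNC libraries. VIM made up most of the sum in every group. Of the other 6 markers only NES had a lower mean in shIFI16 than in shNC cells (96.5 and 126 TPM). GFAP (31.1 and 1.73 TPM), FABP7 (65.9 and 48.0 TPM), SLC1A3, GJA1 and S100B had higher means. Of the immune markers only CD68 reached a mean of 1 TPM in any group, AIF1 and CD3E were listed at 0 in every library, and oligodendrocyte markers summed to 1.05 TPM at most.

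SOX2 had the highest level of the family in all 4 groups, and 7 of the 10 genes were expressed. In control cells SOX2 averaged 420.2 ± 75.2 TPM, SOX9 155 ± 7.98, SOX21 119 ± 11.98, SOX4 98.7 ± 10.9, SOX13 45.0 ± 2.47, SOX12 27.0 ± 9.08 and SOX5 20.7 ± 4.02 TPM (SD, n = 3). The ranges of neighbours in this order overlapped only for SOX12 and SOX5. In radioresistant cells the order was SOX2 (149 ± 20.5 TPM), SOX9 (97.2 ± 11.1), SOX13 (29.6 ± 3.30), SOX4 (27.6 ± 5.10), SOX12 (23.0 ± 4.47), SOX21 (19.7 ± 6.14) and SOX5 (5.72 ± 1.22). There SOX13, SOX4 and SOX12 each overlapped in range with the next gene in the order, and SOX21 did not overlap with SOX5. SOX8 was listed at 0 in all 12 libraries. SOX6 was listed at 0.0185 TPM in control replicate 1 and at 0.00932 TPM in radioresistant replicate 2, SOX11 at 0.00366 TPM in radioresistant replicate 3, and both at 0 in the other libraries.

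**Figure D1:**
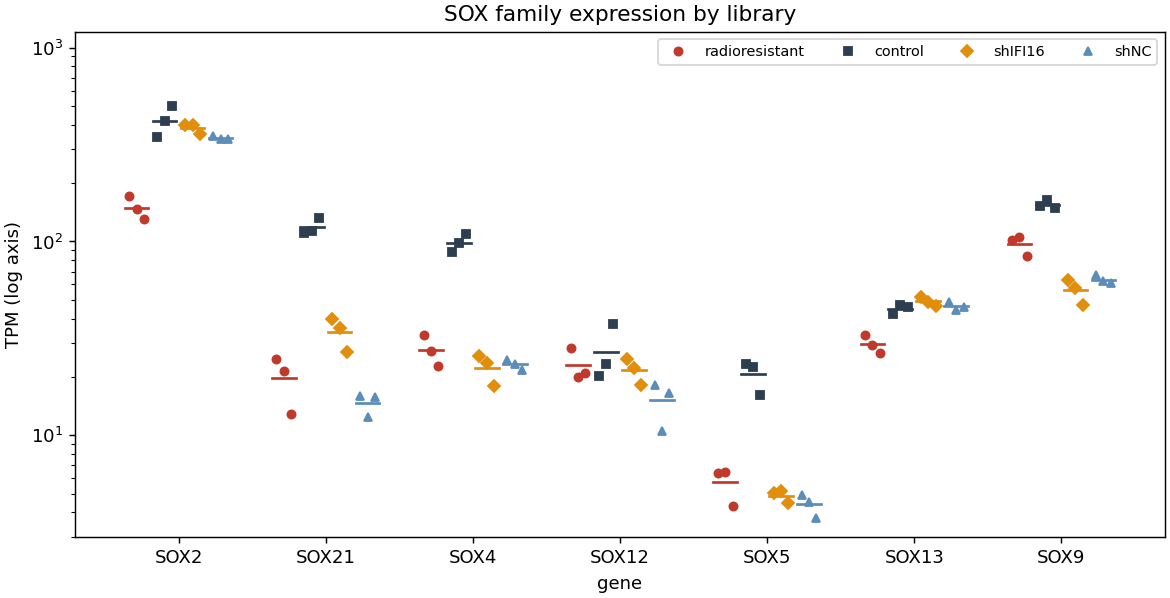
Expression of the 7 expressed members in TPM on a log axis, with 1 point per library and a bar at each mean of 3 libraries. Radioresistant libraries lie under all control libraries for every gene but SOX12, and shIFI16 libraries lie above all shNC libraries for SOX2 and SOX21. The share of all tested genes without overlap was not worked out.

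In radioresistant cells 6 of the 7 tested members of the named set fell against control cells and none rose. At an unadjusted limma p under 0.05 the counts were also 6 and 0. The share of all tested genes at that unadjusted threshold was not worked out. Outside the named set 3 more SOX genes were tested, of which 1, SOX3, rose and 0 fell. Testing was limited to genes that reached 1 TPM in 3 or more of the 6 libraries compared, and a gene passed where limma's p, adjusted by the Benjamini-Hochberg method over all 13127 genes tested, was under 0.05. All 7 expressed members passed that filter in both comparisons and in every library, and SOX6, SOX8 and SOX11 did not. Of all tested genes 27.0% fell, 16.9% rose and 43.9% changed in either direction. The median log2 change of the 7 SOX genes was -1.48, against -0.11 over all tested genes. Fold changes are differences in log2(TPM + 1), a scale that understates the change of low genes. The split of all calls was 2220 raised and 3542 lowered as deposited and 2932 raised and 2985 lowered with median-ratio scaling, which put the median of all tested genes at 0.00. On that scaling the same 6 SOX genes fell, with log2 changes of -2.46 (SOX21) to -0.48 (SOX13). IFI16, the gene later knocked down, stood at 250.8, 309 and 243 TPM in radioresistant libraries, against 70.3, 71.1 and 49.6 TPM in control libraries, and rose by 2.06 on the log2 scale (SE 0.156, limma adjusted p = 3.8e-06).

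Of the SOXB genes in the named set, SOX21 and SOX2 both fell. SOX3, a SOXB gene outside the set, rose by 0.50 on the log2 scale (limma adjusted p = 0.044), a call lost in 7 of 14 alternatives. SOX21, a factor that represses genes that SOX2 and its close relatives activate in the chick spinal cord, stood at 24.7, 21.6 and 12.8 TPM in radioresistant libraries, against 110.2, 114 and 132 TPM in control libraries. Every radioresistant library was far under every control library. Its log2 change was -2.58 (SE 0.205, limma adjusted p = 6.2e-06), the largest fall of the family. SOX2 stood at 171, 146 and 130.4 TPM in radioresistant libraries and at 347, 416 and 497 TPM in control libraries, with no overlap. SOX2 fell by 1.48 on the log2 scale (SE 0.149, limma adjusted p = 2.9e-05), a ratio of mean TPM of 0.355.

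The SOXC members divided, with a fall of SOX4 and no call for SOX12. SOX4, a factor of progenitor survival and of the response to TGF-beta, stood at 32.9, 27.3 and 22.7 TPM in radioresistant libraries and at 88.0, 98.4 and 109.7 TPM in control libraries. These ranges lay far apart, and SOX4 fell by 1.81 on the log2 scale (SE 0.149, limma adjusted p = 7.0e-06). SOX12, its close relative, stood at 28.1, 19.97 and 20.9 TPM in radioresistant and at 20.2, 23.5 and 37.3 TPM in control libraries. The 2 groups overlapped and control replicate 3 stood above all others. The log2 change of SOX12 was -0.19 with a 95% interval of -0.67 to 0.29 (limma adjusted p = 0.50), and without control replicate 3 it was 0.061 (adjusted p = 0.75, range over the alternatives 0.18 to 0.82).

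Among the SOXD and SOXE members, SOX5 fell further than SOX13 and SOX9. SOX5, which acts with SOX9 in cartilage and restrains oligodendrocyte genes in the mouse, stood at 6.40, 6.44 and 4.31 TPM in radioresistant and at 23.5, 22.6 and 16.1 TPM in control libraries. Its log2 change was -1.69 (SE 0.186, limma adjusted p = 5.3e-05). SOX13 stood at 33.0, 29.4 and 26.5 TPM in radioresistant and at 42.3, 47.0 and 45.9 TPM in control libraries. SOX13 fell by 0.59 on the log2 scale (SE 0.124, limma adjusted p = 0.0031), and no library of the 2 groups overlapped. SOX9 stood at 102, 105.2 and 84.6 TPM in radioresistant and at 153, 164 and 148 TPM in control libraries. SOX9 likewise showed no overlap and fell by 0.67 on the log2 scale (SE 0.116, limma adjusted p = 9.9e-04). The 95% intervals of SOX13 (-0.87 to -0.32) and SOX9 (-0.93 to -0.42) lay outside that of SOX5 (-2.10 to -1.28), but the difference between genes was not tested.

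Radioresistant replicate 3 held the lowest value of its group for 6 of the 7 expressed members, and control replicate 1 for 5 of 7. The 6 falls passed with each library left out in turn, with log2 changes of -2.76 to -2.31 for SOX21, -1.61 to -1.35 for SOX2, -1.94 to -1.68 for SOX4, -1.85 to -1.53 for SOX5, -0.73 to -0.58 for SOX9 and -0.67 to -0.52 for SOX13. Endothelial markers summed to 4.66 to 5.07 TPM in radioresistant and 12.4 to 14.2 TPM in control libraries with 1 and 2 of 4 markers at a mean of at least 1 TPM. Neuron markers, of which STMN2 was listed at 0 throughout and 2 of 4 reached a mean of 1 TPM in each group, summed to 9.66 to 12.9 TPM in radioresistant and 17.1 to 23.5 TPM in control libraries. The part of either list in these changes was not tested. In bulk libraries fewer cells of a kind and less RNA per cell cannot be told apart.

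**Figure D2:**
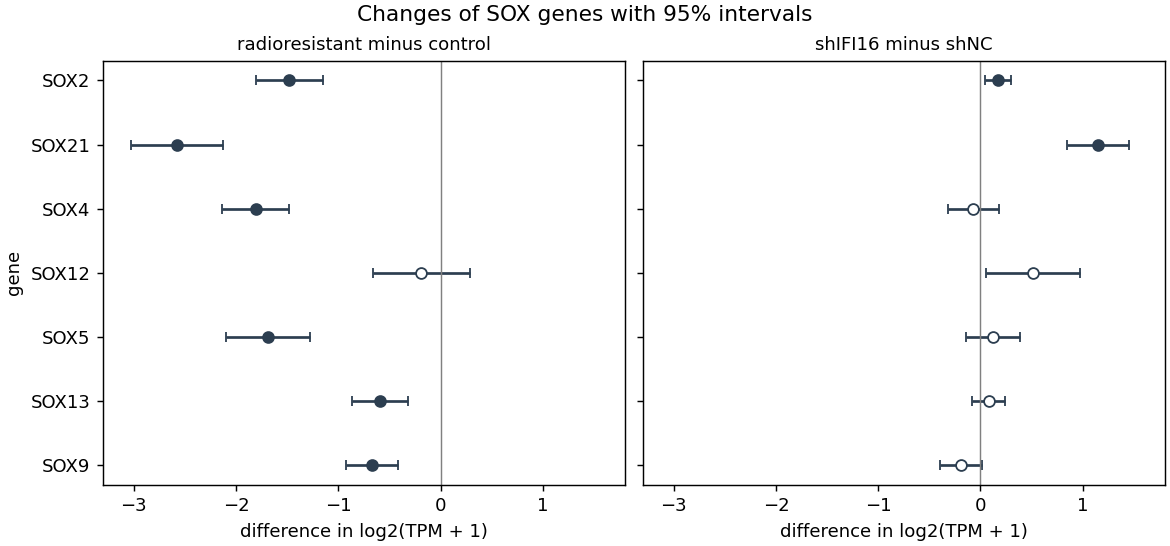
Difference in log2(TPM + 1) of the 7 expressed members, with 95% intervals. Radioresistant minus control cells are on the left and shIFI16 minus shNC cells on the right. Filled points passed at an adjusted p under 0.05: 6 fell on the left and 2 rose on the right.

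The summed level of the 10 genes was 398, 356 and 302 TPM in radioresistant libraries, against 784, 885 and 987 TPM in control libraries. The highest radioresistant sum was well under the lowest control sum. SOX2 and SOX21 together made up 47.9 ± 1.11% of that sum in radioresistant and 60.7 ± 2.83% in control cells (SD, n = 3 each). The share of SOX9, with SOX8 at 0, was 27.7 ± 1.99% in radioresistant and 17.7 ± 2.36% in control cells, and that of the SOXD genes 10.1 ± 0.137% in radioresistant and 7.51 ± 1.09% in control cells. The SOXC share was 14.3 ± 1.04% in radioresistant and 14.2 ± 0.644% in control cells. In the hairpin libraries the sum averaged 573 ± 46.7 TPM in shIFI16 and 509 ± 17.1 TPM in shNC cells. The share of SOX2 and SOX21 was 73.2 ± 1.14% in shIFI16 and 70.0 ± 0.889% in shNC cells. SOX3, also a SOXB gene, is not part of these sums.

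**Figure D3:**
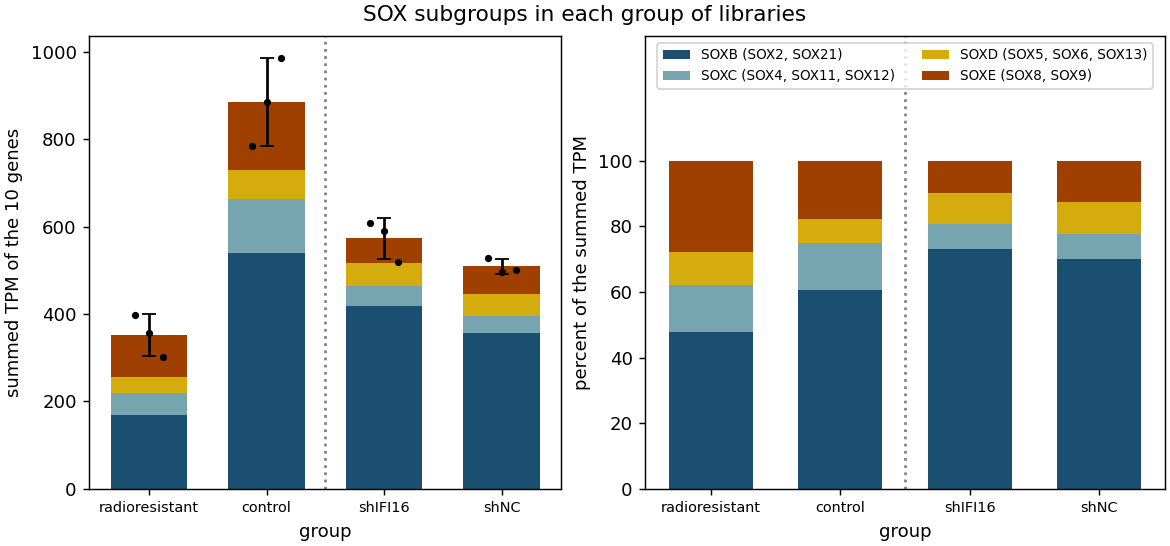
Summed TPM of the 10 SOX genes by subgroup (left, stacked means, with the SD and the 3 libraries of the whole sum) and each subgroup's percent of that sum (right). The dotted line parts the 2 tables, which were normalized separately; the sum is 352 TPM in radioresistant and 885 TPM in control cells.

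After knockdown of IFI16, SOX21 rose 2.32-fold in mean TPM and SOX2 1.13-fold, and none of the 7 tested members fell. At an unadjusted limma p under 0.05, 3 rose and 0 fell, and the share of all tested genes at that threshold was not worked out. IFI16 itself stood at 7.68, 7.90 and 6.71 TPM in shIFI16 libraries, against 125.5, 139.6 and 127 TPM in shNC libraries (log2 change -3.97, limma adjusted p = 4.4e-14), so every library went with its label. Of the 12567 genes tested here 16.6% rose and 16.3% fell, and 32.9% changed in either direction. The median log2 change of the 7 SOX genes was 0.13, against 0.02 over all tested genes. Epithelial markers summed to 172 to 183 TPM in shIFI16 and 65.1 to 66.7 TPM in shNC libraries. Only 2 of these 4 markers reached a mean of 1 TPM in each group, and CDH1 was listed at 0 in every shIFI16 library. Their sum thus does not speak for the whole list. Immune markers summed to 14.02 to 16.8 TPM in shIFI16 and 37.2 to 40.2 TPM in shNC libraries. Neuron markers summed to 12.1 to 12.98 TPM in shIFI16 and 19.1 to 21.1 TPM in shNC libraries. The part of these lists in the changes was not tested.

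SOX21 stood at 39.8, 35.9 and 26.9 TPM in shIFI16 libraries and at 16.0, 12.5 and 15.7 TPM in shNC libraries. The groups did not overlap, and SOX21 rose by 1.15 on the log2 scale (SE 0.138, limma adjusted p = 5.0e-05). It passed under all 14 alternatives, with log2 changes of 1.03 to 1.31. SOX2 stood at 399, 397 and 359.6 TPM in shIFI16 and at 349, 339.7 and 337 TPM in shNC libraries, with no overlap but a gap between the groups that was smaller than the spread within shIFI16. Its rise of 0.17 on the log2 scale (SE 0.0602, limma adjusted p = 0.040) did not pass under 8 of 14 alternatives. The adjusted p was 0.10 without shIFI16 replicate 1, 0.18 without shIFI16 replicate 2 and 0.052, 0.10 and 0.12 without shNC replicates 1, 2 and 3, within a range of 0.0063 to 0.18. All 14 log2 changes of SOX2 were positive, between 0.14 and 0.22.

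The other 5 tested members did not pass after knockdown. SOX4 stood at 25.6, 23.5 and 17.9 TPM in shIFI16 and at 24.4, 23.5 and 21.8 TPM in shNC libraries (log2 change -0.07, 95% interval -0.32 to 0.18, limma adjusted p = 0.69). SOX5 stood at 5.05, 5.15 and 4.46 TPM in shIFI16 and at 4.93, 4.53 and 3.76 TPM in shNC libraries (log2 change 0.13, interval -0.14 to 0.39, limma adjusted p = 0.47). SOX13 stood at 51.9, 48.7 and 46.6 TPM in shIFI16 and at 48.8, 44.2 and 46.2 TPM in shNC libraries (log2 change 0.08, interval -0.09 to 0.24, limma adjusted p = 0.47). For these 3 genes the libraries of both groups were mixed in order. SOX9 stood at 63.3, 57.8 and 46.8 TPM in shIFI16 and at 67.0, 62.2 and 61.2 TPM in shNC libraries, which overlapped, with a log2 change of -0.19 (interval -0.40 to 0.02, limma adjusted p = 0.15). Without shIFI16 replicate 1 that change was -0.28 and passed (adjusted p = 0.016, range over the alternatives 0.016 to 0.55). SOX12 stood at 24.8, 22.2 and 18.2 TPM in shIFI16 and at 18.3, 10.6 and 16.6 TPM in shNC libraries, an overlap by 1 library of each group. The log2 change of SOX12 was 0.52 (interval 0.06 to 0.98, limma adjusted p = 0.085), 0.66 without shNC replicate 1 (adjusted p = 0.014) and 0.29 without shNC replicate 2 (adjusted p = 0.11), within a range of 0.014 to 0.35. The shIFI16 replicate 3 library held the lowest value of its group for all 7 members.

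Set side by side, the log2 changes in radioresistant against control cells and in shIFI16 against shNC cells were -2.58 and 1.15 for SOX21 and -1.48 and 0.17 for SOX2, opposite in sign. SOX4 (-1.81 and -0.07) and SOX9 (-0.67 and -0.19) had the same sign in both, and SOX5 (-1.69 and 0.13), SOX13 (-0.59 and 0.08) and SOX12 (-0.19 and 0.52) opposite signs. None of these 5 genes passed after knockdown. Across the tables, which allow no test, SOX2 stood at 342 ± 6.69 TPM in shNC cells and 149 ± 20.5 TPM in radioresistant cells without a hairpin, and SOX13 at 46.4 ± 2.34 and 29.6 ± 3.30 TPM. SOX21, SOX4, SOX12 and SOX5 were at 14.7 ± 1.94, 23.2 ± 1.33, 15.1 ± 4.05 and 4.41 ± 0.592 TPM in shNC cells. The SOX9 level was 63.5 ± 3.11 TPM in shNC and 97.2 ± 11.1 TPM in radioresistant cells.

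The non-coding genes at the SOX2 and SOX21 loci changed in the same direction as their neighbours in both comparisons. SOX2-OT, a long non-coding gene (chromosome 3, 181056680 to 181742228) whose span on the plus strand holds all of SOX2 (181711925 to 181714436), stood at 45.1, 48.6 and 28.9 TPM in radioresistant libraries, against 508, 471 and 376 TPM in control libraries. It fell by 3.46 on the log2 scale (SE 0.190, limma adjusted p = 4.2e-07). After knockdown SOX2-OT stood at 158, 142 and 128 TPM in shIFI16 and at 84.4, 91.6 and 86.4 TPM in shNC libraries, a rise of 0.69 on the log2 scale (SE 0.0769, adjusted p = 4.9e-06). The ratio of SOX2-OT to SOX2 in TPM was 0.272 ± 0.0558 in radioresistant and 1.12 ± 0.354 in control cells, and 0.370 ± 0.0233 in shIFI16 and 0.256 ± 0.0141 in shNC cells. Because the genes share a strand and a span, reads of the overlap may have been split between them, and these values are uncertain.

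SOX21-AS1 starts 171 bases upstream of SOX21 on the opposite strand, inside the promoter stretch of SOX21 shown above, and its span (chromosome 13, 94712716 to 94715945) does not overlap that of SOX21 (94709622 to 94712545). It stood at 10.8, 8.98 and 5.83 TPM in radioresistant and at 35.3, 33.4 and 37.5 TPM in control libraries and fell by 1.97 on the log2 scale (SE 0.186, limma adjusted p = 1.9e-05). In the knockdown SOX21-AS1 stood at 13.3, 14.4 and 12.7 TPM in shIFI16 and at 7.38, 7.90 and 7.49 TPM in shNC libraries and rose by 0.75 (SE 0.102, adjusted p = 3.6e-05). Its ratio to SOX21 was 0.437 ± 0.0195 in radioresistant and 0.299 ± 0.0190 in control cells, and 0.403 ± 0.0689 in shIFI16 and 0.523 ± 0.0944 in shNC cells. SOX9-AS1 fell by 0.95 (adjusted p = 0.0022) and CASC15, near SOX4, fell by 0.69 (adjusted p = 0.019) on the log2 scale in radioresistant cells, at means of 0.448 and 0.560 TPM there and of 1.75 and 1.54 TPM in control cells. Both passed the filter on low values through the control libraries, which set their direction, and neither was tested in the knockdown. With a pseudocount of 0.1 their log2 changes were -1.96 and -1.35, and CASC15 did not pass without radioresistant replicate 3 (adjusted p = 0.089, range over the alternatives 0.014 to 0.089).

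**Figure D4:**
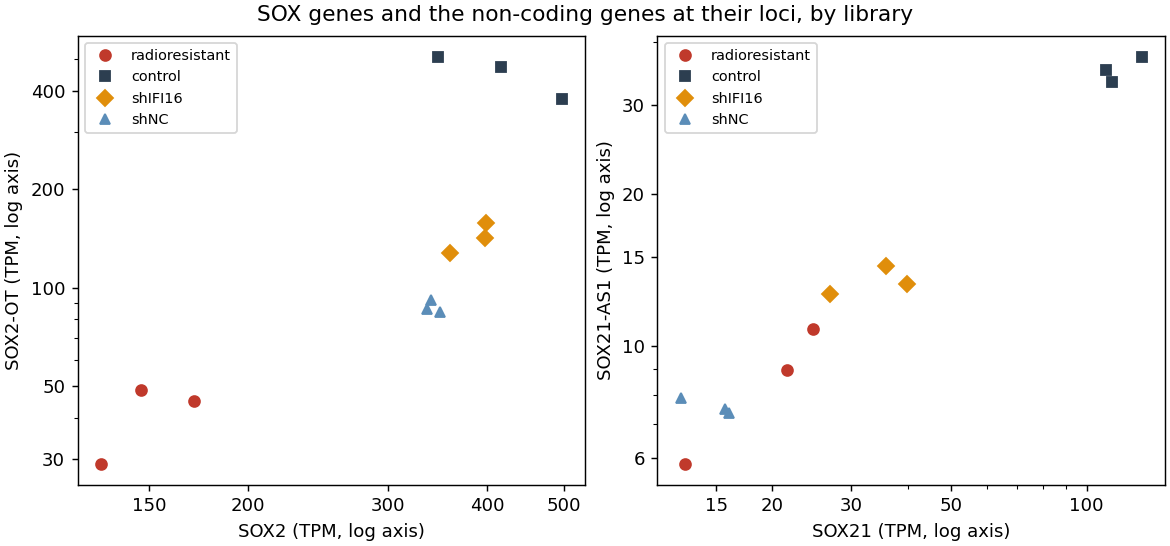
Level of SOX2-OT against SOX2 (left) and of SOX21-AS1 against SOX21 (right) in TPM on log axes, with 1 point per library. Control libraries stand highest for both non-coding genes, and the radioresistant libraries stand lowest for SOX2-OT, at 28.9 to 48.6 TPM.

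Of the 9 other SOX genes looked up, 6 were too low to test in either comparison, among them SOX1, SOX14 and SOX17, which were listed at 0 in every library. SOX3, a SOXB relative of SOX2, stood at 36.2, 38.7 and 44.9 TPM in radioresistant and at 21.3, 28.5 and 35.9 TPM in control libraries. SOX3 rose by 0.50 on the log2 scale (SE 0.178, limma adjusted p = 0.044), opposite in sign to SOX2, but did not pass under 7 of 14 alternatives. The adjusted p was 0.14 and 0.091 without control replicates 1 and 2, and 0.058, 0.074 and 0.17 without radioresistant replicates 1, 2 and 3. It was 0.095 without a low-value filter and 0.058 without trend or robust moderation, within a range of 4.8e-04 to 0.17. After knockdown SOX3 had a log2 change of -0.14 (adjusted p = 0.47). SOX18, a factor of vessel and lymphatic development, stood at 19.6, 20.7 and 14.004 TPM in shIFI16 and at 4.81, 5.16 and 5.04 TPM in shNC libraries and rose by 1.65 on the log2 scale (SE 0.130, adjusted p = 1.1e-07). In radioresistant cells SOX18 stood at 63.9, 57.6 and 39.6 TPM, against 18.6, 25.3 and 46.1 TPM in control libraries, with overlap (log2 change 0.89, adjusted p = 0.059). It passed under 5 of 14 alternatives, among them without control replicate 3 (1.24, adjusted p = 0.0010) and without radioresistant replicate 3 (1.09, adjusted p = 0.045), within a range of 0.0010 to 0.18. Endothelial markers summed to 11.7 to 14.2 TPM in shIFI16 and 6.02 to 6.64 TPM in shNC libraries, and their part in the change of SOX18 was not tested. SOX15 did not pass in either comparison (log2 changes 0.09 and -0.07).

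Partner factors of SOX proteins fell in 4 and rose in 1 of 8 tested cases in radioresistant cells, and rose in 2 and fell in 1 of 7 cases after knockdown. Over all tested genes 27.0% fell and 16.9% rose in radioresistant cells, and 16.6% rose and 16.3% fell after knockdown, shares against which the counts of the lists that follow are also to be read. POU3F2, which with SOX2 and SALL2 belongs to the core set of factors that reprograms glioblastoma cells to a stem-like state, averaged 33.1 ± 2.74 TPM in radioresistant and 83.4 ± 4.96 TPM in control cells. POU3F2 fell by 1.31 on the log2 scale (limma adjusted p = 1.2e-05), and SALL2 fell by 2.22 (adjusted p = 4.0e-06). SALL2, among the 4 counted, passed the filter on low values through the control libraries alone, which set its direction. NFIB and NFIX, nuclear factor I genes of glial development, fell by 0.74 (adjusted p = 0.0015) and 0.71 (adjusted p = 0.0033). PAX6 rose by 0.53 (adjusted p = 0.025), a call lost in 4 of 14 alternatives, among them without control replicate 1 or radioresistant replicate 1 or 2 (adjusted p = 0.070, 0.080 and 0.089, range 0.0046 to 0.089). After knockdown the chromatin remodeller gene CHD7 and NFIB rose by 0.92 and 0.46 (adjusted p = 5.2e-05 and 0.0079), and PAX6 fell by 0.35 (adjusted p = 0.023). PAX6 did not pass there without shIFI16 replicate 2 or shNC replicate 2 or 3 (adjusted p = 0.069, 0.13 and 0.051, range 0.0055 to 0.13). OLIG1 was listed near 0 and OLIG2, another factor of that core set, averaged under 1 TPM in all groups.

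Neural progenitor genes tied to SOX2 fell in 5 of 8 tested cases in radioresistant cells with none raised, and rose in 3 and fell in 2 of 6 cases after knockdown. FABP7, MSI1, NES and MSI2 fell by 2.45, 2.79, 1.31 and 1.07 on the log2 scale (limma adjusted p of 2.5e-05 or less). MSI1, among the 5 counted, passed the filter on low values through the control libraries alone, which set its direction. MSI1 averaged 0.181 ± 0.156 TPM in radioresistant and 7.13 ± 0.768 TPM in control cells, and its log2 change with a pseudocount of 0.1 was -4.82. After knockdown MSI2, the adhesion gene CDH2 and FABP7 rose by 0.57, 0.71 and 0.45 and HES1 fell by 0.44 (adjusted p of 5.6e-04 or less). Glial genes under SOX9 and SOX10 fell in 5 of 6 tested cases in radioresistant cells, and rose in 3 of 5 after knockdown with none lowered. The filament gene GFAP averaged 31.1 ± 1.67 TPM in shIFI16 and 1.73 ± 0.344 TPM in shNC cells, a rise of 3.56 on the log2 scale (SE 0.116, limma adjusted p = 3.6e-12). PDGFRA, the receptor of oligodendrocyte progenitors, rose there by 1.79 and CNP by 0.46 (adjusted p = 6.5e-08 and 7.1e-04), while SLC1A3 had a log2 change of 0.13 (adjusted p = 0.27). In radioresistant cells GFAP, PDGFRA, S100B and SLC1A3 had log2 changes of -5.66, -3.18, -2.79 and -1.11 (adjusted p of 1.2e-04 or less). S100B, among the 5 counted, passed the filter through the control libraries alone, which set its direction. S100B had a log2 change of -4.38 with a pseudocount of 0.1. Across the tables, which allow no test, GFAP averaged 80.6 TPM in radioresistant cells without a hairpin and 4011 TPM in control cells. PDGFRA averaged 12.6 TPM in radioresistant, 121 TPM in control, 6.22 TPM in shIFI16 and 1.08 TPM in shNC cells.

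Cartilage matrix genes under SOX9, SOX5 and SOX6 were mostly silent, with 3 of 12 tested and COL2A1, ACAN and HAPLN1 below 1 TPM in every group. COL11A1 fell by 1.46 in radioresistant cells (limma adjusted p = 1.3e-05) and rose by 1.94 after knockdown (adjusted p = 2.9e-09), and COL9A2 fell by 0.68 in radioresistant cells (adjusted p = 0.014, and 0.062 without radioresistant replicate 3, range 0.0059 to 0.062). COL9A3 passed in neither comparison (log2 changes -0.26 and 0.24). COL11A1 averaged 37.4 TPM in radioresistant, 104 TPM in control, 17.6 TPM in shIFI16 and 3.83 TPM in shNC cells. Of the neuronal genes tied to SOX4 and SOX11, 2 of 3 tested fell in radioresistant cells, TEAD2 by 0.50 and TUBB3 by 0.40 (adjusted p = 0.0096 and 0.011). The TEAD2 call was lost under 2 and the TUBB3 call under 3 of 14 alternatives. Neither passed without control replicate 2 (adjusted p = 0.054 and 0.062) or without radioresistant replicate 3 (0.052 and 0.051). The ranges were 0.0040 to 0.054 for TEAD2 and 0.0084 to 0.077 for TUBB3. After knockdown TEAD2 rose by 0.38 (adjusted p = 0.0052), and TUBB3 and MAP2 fell by 0.17 and 0.45 (adjusted p = 0.037 and 0.0033). The TUBB3 call was lost in 6 of 14 alternatives, namely without trend or robust moderation and without shIFI16 replicate 2 or 3 or any of the 3 shNC replicates (adjusted p = 0.076 to 0.11, range over the alternatives 0.0076 to 0.11).

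Upstream regulators fell in 4 and rose in 1 of 12 tested cases in radioresistant cells, with PTCH1, GLI3, TGFBR1 and SMAD2 lowered by 0.74, 0.57, 0.54 and 0.51 on the log2 scale (limma adjusted p = 0.0024 to 0.023). These counts were near the shares of all tested genes, 27.0% lowered and 16.9% raised. TGFBR1 did not pass under 4 and SMAD2 under 5 of 14 alternatives. Neither passed without control replicate 1 (adjusted p = 0.058 and 0.067), control replicate 2 (0.054 and 0.099), radioresistant replicate 1 (0.059 and 0.095) or radioresistant replicate 3 (0.052 and 0.068). The ranges were 0.0014 to 0.059 and 0.0018 to 0.099. After knockdown 3 rose and 2 fell, again near the 16.6% raised and 16.3% lowered of all tested genes, and the receptor gene TGFBR2 fell by 1.24 (SE 0.0846, adjusted p = 2.5e-08), to 30.9 ± 2.93 TPM in shIFI16, against 74.1 ± 4.25 TPM in shNC cells. There its ligand gene TGFB1 fell by 0.41, and the Hedgehog pathway genes PTCH1 and GLI3 rose by 0.66 and 0.46 (adjusted p of 0.0096 or less). The GLI3 rise did not pass without a filter on low values (adjusted p = 0.056, range 1.1e-04 to 0.056). TCF and beta-catenin genes fell in 3 of 6 cases in radioresistant cells and rose in 1 and fell in 1 of 6 after knockdown, counts after knockdown that were near the shares of all tested genes. TCF7L1 had a log2 change of -0.99 in radioresistant cells (adjusted p = 5.1e-04) and 1.00 after knockdown (adjusted p = 3.2e-06), and TCF7, a partner of SOX13 in the mouse, fell by 0.78 after knockdown (adjusted p = 5.5e-04). TCF7L2 and CTNNB1 fell by 0.60 and 0.35 in radioresistant cells (adjusted p = 0.0038 and 0.025). CTNNB1 did not pass with median-ratio scaling (adjusted p = 0.069) or without control replicate 1 or 2 (0.082 and 0.081) or radioresistant replicate 1 or 3 (0.063 and 0.11), within a range of 0.0068 to 0.11.

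Likeness of pattern was measured for the 3 members of highest mean TPM as the Euclidean distance, over 12 libraries, of log2(TPM + 1) minus the mean of control or shNC cells, among 12930 other genes. The 12 points of a gene share libraries and 2 comparison groups, so this is a description. SOX2 was nearest to PLD2 (0.343), NACAD (0.393), SLC29A4 (0.407), FZD1 (0.484) and COL4A5 (0.488), against a median distance of 2.56. SOX9 was nearest to IGF1R (0.239), AFAP1 (0.244), TP53BP1 (0.246), TCF7L2 (0.259) and CREBL2 (0.260), with a median of 1.36. SOX21 was nearest to WSCD1 (0.702), the endothelial cadherin gene CDH5 (0.703), LGR6 (0.899), EFHD1 (0.928) and STON1 (0.958), with a median of 4.83. Some of these genes were low, where log2(TPM + 1) understates changes and can shorten a distance. NACAD averaged 1.04 and 0.670 TPM and SLC29A4 0.533 and 0.389 TPM in shIFI16 and shNC cells. CDH5 and LGR6 averaged 0.674 and 0.134 TPM in radioresistant cells, and EFHD1 averaged 0.312 TPM in shNC cells. Within the family SOX4 was the nearest to SOX2, at rank 97, SOX13 the nearest to SOX9, at rank 555, and SOX5 the nearest to SOX21, at rank 196.

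Open chromatin was given as 1 list of summits per library, single positions of highest signal with the authors' score on the -log10 q scale, and 1 library per condition leaves no replicate check and no test. The radioresistant library held 12877 summits and the control library 2454, so counts near any set of genes differ with these totals. Within 100 kb of a SOX gene start lay 21 summits of the radioresistant library, near 9 of the 10 genes, and 3 of the control library, near 3 genes. These were 0.163% and 0.122% of the summits of each library. The share of all genes with a summit within 100 kb was not worked out. The counts of 9 and 3 genes thus do not set SOX genes apart. Within 1 kb of the start, 4 of 10 members (SOX2, SOX4, SOX6 and SOX12) had a radioresistant summit and 0 of 10 a control summit. The RefSeq promoter table gave starts for 27305 genes outside chr8. Of these, 19.1% had a summit within 1 kb in the radioresistant library and 3.57% in the control library. There a gene counted if any of its listed starts had such a summit, whereas each member was scored at 1 start. SOX8, SOX9 and SOX11 had no entry there. The member counts and these shares are therefore not measured quite alike.

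SOX2 carried 4 radioresistant summits, at 7602, 1038 and 486 bases upstream and 11961 bases downstream of its start, with scores of 3.31, 3.39, 5.73 and 3.08, and no control summit. SOX4 had a summit 28 bases into the gene (score 2.95) and another 6150 bases upstream (2.25). SOX6, which was at or near 0 TPM in all libraries, had a summit 497 bases upstream of its start (2.63). The strongest summits were 43571 bases from SOX8 (17.2) and 58309 bases from SOX13 (14.4) in the radioresistant library, and the control library had summits 43566 bases from SOX8 (4.63) and 58290 bases from SOX13 (6.12). SOX12 had summits 1000 bases upstream (2.43) in the radioresistant library and 22335 bases downstream (2.26) in the control library. SOX5, SOX8, SOX9, SOX13 and SOX21 had no summit within 10 kb of the start in either library, and SOX11 none within 100 kb. For SOX5 the nearest summit to the start was 99101 bases upstream, in the radioresistant library. That library also had summits inside SOX5, from 516540 to 666432 bases downstream of its start.

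**Figure D5:**
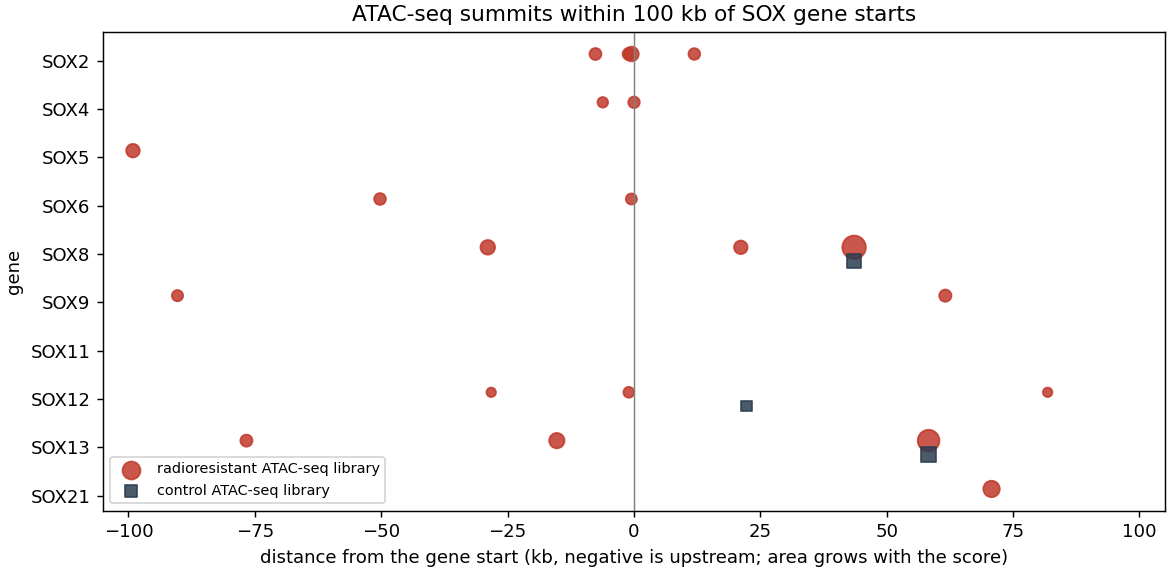
Distance of each ATAC-seq summit from the start of its SOX gene in kb, out to 100 kb on each side, with the area of a point growing with the authors' score. The radioresistant library holds 21 points and the control library 3, and those at the starts of SOX2, SOX4, SOX6 and SOX12 are all from the radioresistant library.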

How the data were processed

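The authors deposited 2 tables of RNA values and 1 list of ATAC-seq summits per library. The deposited RNA values are TPM, although the tables are named as counts: each column sums to 1000000. Per the submitters' processing notes, the tools were featureCounts, Cufflinks 2.2.1, TopHat and Trim Galore 0.6.6, with MACS2 2.1.4, SAMtools 1.10 and Bowtie2 2.2.5 added for the ATAC-seq samples, and the build was hg38. The notes as used here give no settings, and gene annotation and strand use: not given in the sources used here. The deposited summit score is taken as a -log10 q-value from the layout of the file. Per the labels' protocols, RNA was extracted with Trizol and libraries made with the NEBNext Ultra mRNA kit. TPM keeps no depth, so no counting interval is given.

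Column codes were read as control (UN), radioresistant (UR), shNC (URN) and shIFI16 (URS); IFI16 levels go with the last pair, and nothing of the kind checks the first. Per RNA table, 28 rows with a date in place of a gene name were dropped (0.115 to 0.190% of a library). Genes that reached 1 TPM in 3 or more of 6 libraries were fitted by limma 3.58.1 (R 4.3.3) on log2(TPM + 1), with trend and robust moderation, two-sided, each comparison inside its own table, and adjusted by the Benjamini-Hochberg method (threshold 0.05). The script was tested on simulated data. Gene starts are RefSeq's (GRCh38.p14); for SOX8, SOX9 and SOX11 the lower coordinate was taken as the start, and promoters of 6 members, those with a single entry in the RefSeq table, were used here. The members and the 9 gene lists were chosen with earlier results of these data known. Named were all members, IFI16, up to 4 genes per list by smallest p, and 5 nearest genes for each of 3 members; PAX6 in radioresistant cells and genes named for low values were chosen after their values were seen. Alternatives changed the filter, pseudocount, scaling, moderation, block or libraries used.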

Additional observations from a re-analysis of the deposited data

How the results depend on the processing

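Each comparison was refitted under 14 alternatives. In radioresistant cells 6 SOX members fell and 0 rose under every alternative. After knockdown 2 rose and 0 fell, but 1 rose without a low-value filter, with median-ratio scaling and without trend or robust moderation, and 1 to 2 rose and 0 to 1 fell when a library was left out. Whether equal replicate numbers pair the samples cannot be settled with 3 libraries per group, and the main fit used no pairing. Deviations from group means correlated between same-numbered libraries at -0.377, 0.245 and 0.0810 in radioresistant and control cells. In shIFI16 and shNC cells they correlated at 0.215, 0.0881 and 0.0278. Libraries of unlike number correlated at -0.429 to 0.394 in the first comparison and at -0.231 to 0.148 in the second. With the replicate block 1 member, SOX9, fell after knockdown (adjusted p = 0.031), and 5572 and 5610 genes changed in the 2 comparisons, against 5762 and 4140 without it. Leaving out a library moved these counts to 3875 to 7138 and 2888 to 4086. Signs turned only for changes that had not passed, each when a library was left out: in radioresistant cells SOX12 (-0.37 to 0.061, positive without control replicate 3), SOX15 (-0.11 to 0.24, negative without control replicate 2), COL9A3 (-0.58 to 0.084, positive without control replicate 3) and TCF7 (-0.014 to 0.10, negative without radioresistant replicate 2), and after knockdown SOX4 (-0.17 to 0.076, positive without shIFI16 replicate 3), SOX15 (-0.22 to 0.035, positive without shIFI16 replicate 2) and SOX3 (-0.29 to 0.024, positive without shNC replicate 1). The cause was not tested. Summits near SOX genes, 21 in the radioresistant and 3 in the control library, numbered 7 and 0 within 10 kb, 2 and 0 at a score of at least 10, and 11 and 1 in the gene body with 5 kb on each side. Depth is unknown for the TPM values, so listings at 0 do not show absence.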
